A study of Mus musculus with 9 samples.

Results

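Transcripts of 10 Krüppel-like factor genes, Klf2, Klf3, Klf4, Klf5, Klf6, Klf7, Klf9, Klf10, Klf13 and Klf15, were followed in mice of 3 Svil genotypes, in the left tibialis anterior, a leg muscle made mostly of fast fibres. The members were taken by symbol from a table of 56805 genes, in which 17 Klf genes had a row. They had been picked with earlier results on these same libraries in view, so their levels and fold changes are given as a description and support no claim about the genotypes. There were 3 mice labelled Svil-Mut, 3 mice labelled Svil-KO and 3 wild-type (WT) mice, all 13-month-old males, with 1 RNA-seq library per mouse. Svil encodes supervillin, a membrane-associated protein that binds actin and myosin, and the series title names insulin action, glucose metabolism and muscle function as its subject. The labels do not say which alleles the names Svil-Mut and Svil-KO stand for, nor the genetic background, any driver line or the litters. Each library came from whole muscle, so fewer cells of one type and less RNA per cell cannot be told apart in the values below.

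Krüppel-like factors are zinc finger transcription factors that bind CACCC and GC-rich elements in promoters and enhancers. Some of them are inducible: Klf2 and Klf4 respond to fluid shear in endothelial cells through the MEK5-ERK5-MEF2 route, Klf10 was first described as an early gene induced by TGF-beta, and Klf4, Klf6 and Klf10 can be induced quickly by growth factors or stress in cultured cells. Others follow hormones and the clock: Klf9 and Klf15 are induced by glucocorticoids, and Klf15 is known in muscle for its part in the use of amino acids and lipids. The members were therefore grouped as inducible (Klf2, Klf4, Klf5, Klf6 and Klf10), as metabolic (Klf9 and Klf15) and as the remaining members (Klf3, Klf7 and Klf13).

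The libraries held 36234428 to 48762188 reads assigned to genes, and all 9 carried the same batch label. The altered gene itself had 4615, 3939 and 4582 normalized counts in the Svil-Mut libraries, 7402, 6746 and 6656 in those labelled Svil-KO, and 8686, 9373 and 8407 in the WT libraries, where a normalized count is a read count divided by the size factor of its library. Svil transcript thus averaged 49.6% of the WT level in Svil-Mut libraries and 78.6% in the libraries labelled Svil-KO, in which most of it was still present. Markers of skeletal muscle fibres summed to 7388240 to 7821170 normalized counts in Svil-Mut, 6361650 to 7153250 in Svil-KO and 6357730 to 6629110 in WT libraries, and none of the 10 was at 0 in any library. Every Svil-Mut sum lay above every other sum, but the markers did not share a direction. Acta1, skeletal actin, averaged 2507170 normalized counts in Svil-Mut, 2135750 in Svil-KO and 1999000 in WT, and all its Svil-Mut libraries were higher than the others. Mb, the oxygen store of oxidative fibres, averaged 44998 ± 13300 (SD over 3 libraries) in Svil-Mut, 90032 ± 17876 in Svil-KO and 92426 ± 16944 in WT, and all its Svil-Mut libraries were lower. Myh2, the fast oxidative myosin, averaged 13631 ± 9306 in Svil-Mut, 34377 ± 7921 in Svil-KO and 38392 ± 6930 in WT. In Svil-Mut versus WT limma and edgeR called none of the 10. With limma 5 had an unadjusted p under 0.05, beside 10% of all genes tested, and DESeq2 called 2, beside 1.15%. The part of fibre makeup in the Klf values was not tested. In a principal component analysis of log2(normalized count + 1) over the 15279 genes tested, Svil-Mut replicate 2 stood apart on component 1 and Svil-Mut replicate 4 on component 2, which held 17.8% and 14.7% of the variance.

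Promoter sequences are shown for 4 members: the inducible Klf2, Klf4 and Klf6, whose Svil-Mut libraries all lay above the WT libraries, and the metabolic Klf15, whose libraries mostly did not separate by genotype. They cover the bases from 250 to 31 before the transcription start in the RefSeq annotation of GRCm38.p6, written 5′ to 3′ along the strand of the gene. The Klf2 window lies at chr8:72318812-72319031 (+ strand), that of Klf4 at chr4:55532506-55532725 (- strand), that of Klf6 at chr13:5861239-5861458 (+ strand) and that of Klf15 at chr6:90462326-90462545 (+ strand). Capitals mark 3 kinds of letters found by a search of both strands: the consensus site of the MEF2 factors, the core of the cAMP response element (TGACG, or CGTCA where it lies on the other strand), and the E-box CACGTG, to which clock factors can bind.
Klf2: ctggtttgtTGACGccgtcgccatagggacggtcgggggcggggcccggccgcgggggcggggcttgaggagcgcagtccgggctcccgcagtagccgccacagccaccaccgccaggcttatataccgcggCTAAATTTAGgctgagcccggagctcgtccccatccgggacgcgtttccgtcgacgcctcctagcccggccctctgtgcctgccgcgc
Klf4: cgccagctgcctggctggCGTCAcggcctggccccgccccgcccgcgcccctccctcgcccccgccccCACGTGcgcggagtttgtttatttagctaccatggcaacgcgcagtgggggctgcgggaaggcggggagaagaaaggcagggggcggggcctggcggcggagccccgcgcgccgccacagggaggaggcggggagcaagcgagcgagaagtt
Klf6: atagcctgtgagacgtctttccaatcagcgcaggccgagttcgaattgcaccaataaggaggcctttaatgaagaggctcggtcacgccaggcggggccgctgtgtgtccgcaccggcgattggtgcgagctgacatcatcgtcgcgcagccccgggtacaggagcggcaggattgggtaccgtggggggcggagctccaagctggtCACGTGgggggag
Klf15: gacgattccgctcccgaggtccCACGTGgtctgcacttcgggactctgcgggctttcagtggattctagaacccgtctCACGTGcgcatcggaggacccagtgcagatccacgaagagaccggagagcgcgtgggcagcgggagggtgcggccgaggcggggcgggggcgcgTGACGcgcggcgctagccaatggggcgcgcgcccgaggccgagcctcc

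The Klf2 window held the MEF2 consensus 118 to 109 bases before the start, an element present in 2.6% of 32851 mouse promoter windows of the same length. TGACG was found once in each of the Klf2, Klf4 and Klf15 windows, in those of Klf9 and Klf13 as well, and in 14.83% of all windows. CACGTG was found in the Klf4 window 182 to 177 bases before the start, in the Klf6 window at 43 to 38, and in the Klf15 window at 228 to 223 and again at 172 to 167, while 5.01% of all windows held it. The GC box GGGCGG, not in capitals, had 4 matches in the Klf4 window, of which the 2 farthest from the start share 1 base, 2 in the Klf2 window and 6 in that of Klf3, against 28.5% of all windows with a match. Promoter entries matched 8 of the 10 members, all but Klf5 and Klf10. CACCC, which Klf proteins themselves can bind, occurred 5 times in the Klf3 window and 3 times in that of Klf7, and 47.79% of all windows held it. The consensus of the CArG box, bound by serum response factor, was in none of the 8 windows and in 1.3% of all windows. These matches describe letters in a window and were not tested against the expression values.

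Klf2 and Klf4 had more transcript in every Svil-Mut library than in any other library. Klf2 (chr8:72319033-72321656, + strand, GRCm38, as are all gene positions here), the flow-responsive factor of endothelium, had 3891, 3302 and 2856 normalized counts in Svil-Mut, 1749, 874 and 1117 in Svil-KO, and 1320, 855 and 1124 in WT. The Svil-Mut libraries did not overlap with either other group, while the Svil-KO and WT libraries overlapped. The lowest Svil-Mut library stood 1.63 times above the highest Svil-KO library and 2.16 times above the highest WT library. The log2 fold change of Klf2 was 1.62 ± 0.24 (SE) in Svil-Mut versus WT and 1.47 ± 0.24 in Svil-Mut versus Svil-KO, and 0.14 ± 0.24 in Svil-KO versus WT, on the scale of log2(normalized count + 1) used for every fold change here. Among the Svil-KO libraries, replicate 1 was the highest for Klf2. Leaving out 1 library at a time gave 1.45 to 1.76 in Svil-Mut versus WT.

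Klf4 (chr4:55527143-55532466, - strand), which acts beside Klf2 in endothelium and is one of the factors used to reprogram cells to pluripotency, had 602, 1074 and 831 normalized counts in Svil-Mut, 253, 112 and 163 in Svil-KO, and 211, 183 and 248 in WT. The lowest Svil-Mut library was 2.38 times the highest Svil-KO library and 2.43 times the highest WT library, while the Svil-KO and WT libraries overlapped. Its log2 fold change was 1.93 ± 0.30 in Svil-Mut versus WT, 2.28 ± 0.30 in Svil-Mut versus Svil-KO and -0.35 ± 0.30 in Svil-KO versus WT, the largest among the 10 members in the first 2 comparisons. Between 110 and 1125 reads per library lay behind these values, and leaving out 1 library at a time gave 1.73 to 2.15 in Svil-Mut versus WT.

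Klf10 (chr15:38291463-38300706, - strand), which represses and activates targets downstream of TGF-beta, varied most within Svil-Mut. It had 2323, 4594 and 1255 normalized counts in Svil-Mut, 1111, 568 and 968 in Svil-KO, and 1005, 638 and 1089 in WT. Replicate 2 of Svil-Mut held 3.66 times as much Klf10 as replicate 4, and replicate 4 lay 1.13 times above the highest Svil-KO library and 1.15 times above the highest WT library. The log2 fold change in Svil-Mut versus WT was 1.42 ± 0.41 over all libraries. It was 0.94 when Svil-Mut replicate 2 was left out and 1.88 when replicate 4 was.

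Klf6 (chr13:5861482-5870394, + strand), a widely expressed factor linked to injury responses, had the smallest gap to WT of the 4 inducible members whose Svil-Mut libraries all lay above WT. It had 2154, 2855 and 3290 normalized counts in Svil-Mut, 2281, 1630 and 2022 in Svil-KO, and 2053, 1614 and 1867 in WT. All Svil-Mut libraries lay above the WT libraries, by 1.05 times at the nearest, but Svil-Mut replicate 1 lay below Svil-KO replicate 1. The log2 fold change was 0.57 ± 0.17 in Svil-Mut versus WT and 0.48 ± 0.17 in Svil-Mut versus Svil-KO.

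Klf5 (chr14:99298691-99315036, + strand), which drives growth of smooth muscle and epithelial cells, did not share the pattern of the other inducible members. It had 184, 152 and 182 normalized counts in Svil-Mut, 155, 239 and 116 in Svil-KO, and 88.6, 465 and 198 in WT. The highest WT library, replicate 3, held 5.25 times the Klf5 of the lowest, replicate 1, and both other groups lay inside that range. Its log2 fold change was -0.23 ± 0.49 in Svil-Mut versus WT, an error wide enough to hold either sign.

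**Figure D1:**
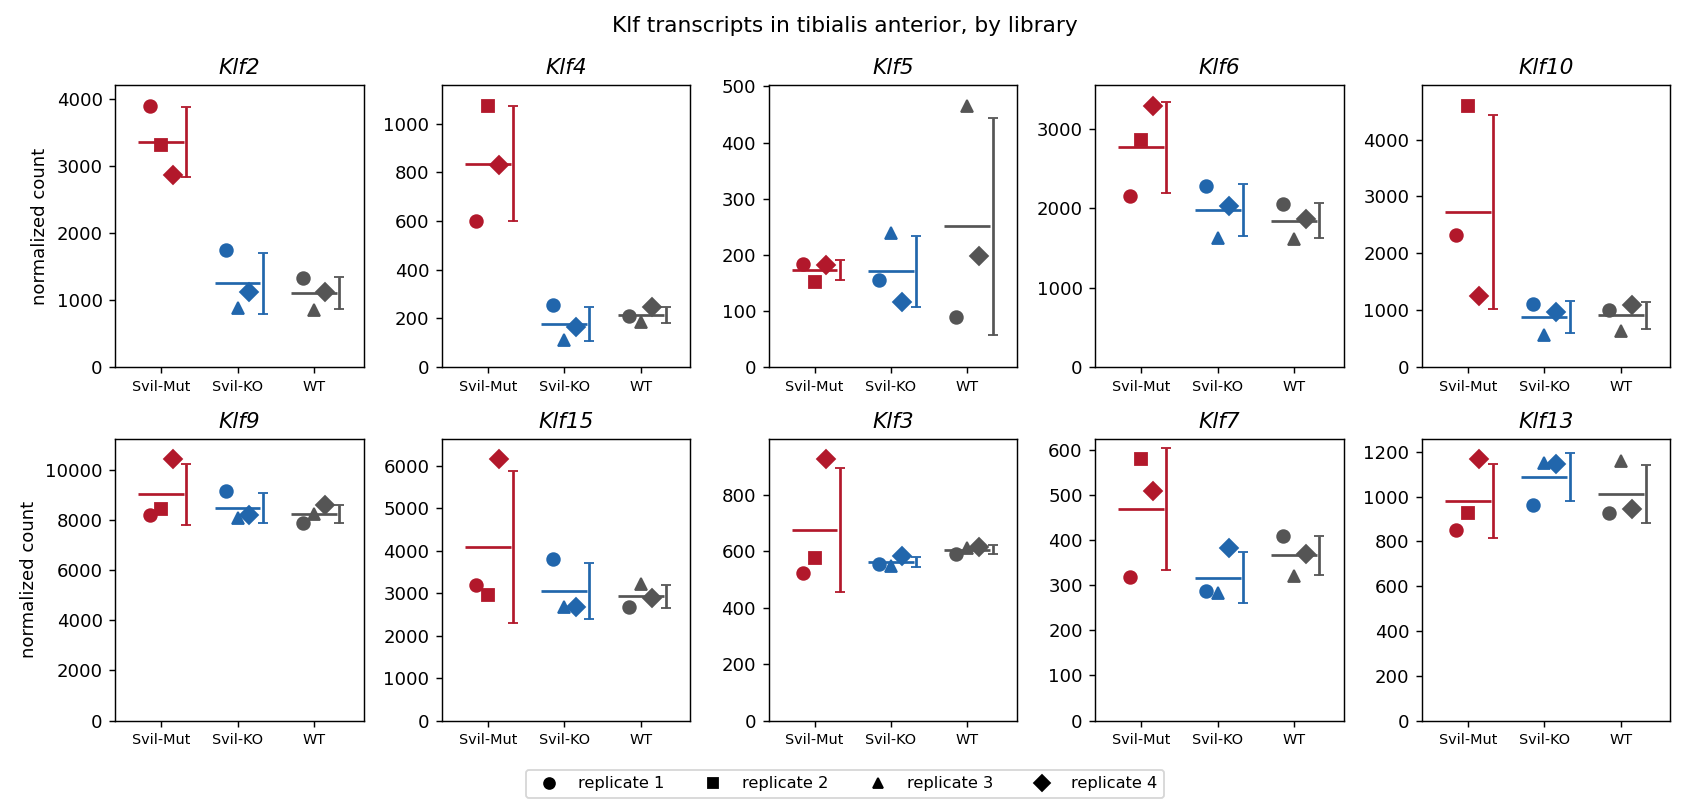
Normalized counts of the 10 Klf members (y axes from 0) in each library of Svil-Mut, Svil-KO and WT tibialis anterior. Points are libraries, with marker shape for the replicate number, horizontal lines are means and bars are SD with n = 3; Klf2, Klf4 and Klf10 of Svil-Mut lie above all other libraries, and Klf15, Klf9 and Klf3 have 1 high Svil-Mut library, replicate 4.

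The metabolic members were abundant and varied little between genotypes, apart from a single library. Klf15 (chr6:90462576-90475238, + strand), the glucocorticoid-induced factor of amino acid use, had 3181, 2942 and 6143 normalized counts in Svil-Mut, 3808, 2673 and 2679 in Svil-KO, and 2678, 3209 and 2888 in WT. Svil-Mut replicate 4 was 2.09 times the lowest Svil-Mut library, and the other Svil-Mut libraries lay within the range of Svil-KO and WT. The log2 fold change of Klf15 in Svil-Mut versus WT was 0.40 ± 0.24 over all libraries and 0.07 without Svil-Mut replicate 4.

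Klf9 (chr19:23141226-23168134, + strand), induced by thyroid hormone and glucocorticoids, had 8213, 8433 and 10420 normalized counts in Svil-Mut, 9152, 8097 and 8197 in Svil-KO, and 7895, 8231 and 8605 in WT. Its coefficient of variation was 13.5% among Svil-Mut, 6.87% among Svil-KO and 4.31% among WT libraries, and the highest library was again Svil-Mut replicate 4. The log2 fold change in Svil-Mut versus WT was 0.12 ± 0.10 with that library and 0.01 without it.

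Of the remaining members, Klf3 (chr5:64803388-64832901, + strand), a repressor that recruits CtBP, had 521, 578 and 925 normalized counts in Svil-Mut, 555, 548 and 583 in Svil-KO, and 588, 613 and 616 in WT. It was the steadiest member in the last 2 groups, with coefficients of variation of 3.28% in Svil-KO and 2.52% in WT. Every Svil-KO library lay below every WT library, at a log2 fold change of -0.11 ± 0.19, and Svil-Mut replicate 4 was the only library above the highest WT library. Its log2 fold change in Svil-Mut versus WT was 0.11 ± 0.19 with that library and -0.14 without it. Klf7 (chr1:64029447-64122282, - strand), which acts in neurons and preadipocytes, had 318, 579 and 509 normalized counts in Svil-Mut, 287, 282 and 382 in Svil-KO, and 409, 322 and 370 in WT. Svil-Mut replicate 1 lay within the range of Svil-KO and just below the lowest WT library. The log2 fold change was 0.31 ± 0.23 in Svil-Mut versus WT and 0.53 ± 0.23 in Svil-Mut versus Svil-KO. Klf13 (chr7:63886351-63938915, - strand), known from T cells as an activator of a chemokine gene, had 850, 928 and 1166 normalized counts in Svil-Mut, 962, 1151 and 1144 in Svil-KO, and 929, 1160 and 943 in WT. The 3 groups overlapped for Klf13, with a log2 fold change of -0.05 ± 0.15 in Svil-Mut versus WT. Because the library kit does not mark strand, reads of Klf13 and of Gm27252, which lies on the opposite strand, cannot be told apart where they overlap. Gm27252 itself averaged 143 ± 23.5 normalized counts (SD over 3 libraries) in Svil-Mut, 148 ± 14.4 in Svil-KO and 169 ± 55.2 in WT. Klf3 and Klf7 also overlap genes on the opposite strand, and those of them with a row, Gm20033 and Gm13748, had at most 14.3 normalized counts in any library.

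Counts over the 10 members were set beside the same counts over all 15279 genes tested. With limma and a Benjamini-Hochberg adjusted p under 0.05, none of the 10 members was called in Svil-Mut versus WT, where 0.0393% of all genes were called. At an unadjusted p under 0.05 there were 4 members, beside 10% of all genes. In Svil-Mut versus Svil-KO 1 member was called, Klf4, beside 0.0458% of all genes, and 5 had an unadjusted p under 0.05, beside 10.2% of all genes. That call was lost without Svil-Mut replicate 2 or 4, without Svil-KO replicate 3 or 4, and without WT replicate 1 or 4, with adjusted p of 0.061 to 0.142 by limma. In Svil-KO versus WT neither a member nor any other gene was called (0% of all genes), and at an unadjusted p under 0.05 there were 0 members beside 4.11% of all genes. On reads recovered from the normalized counts, edgeR called 0 members in Svil-Mut versus WT beside 0.0393% of all genes, 1 in Svil-Mut versus Svil-KO, again Klf4, beside 0.0458%, and 0 in Svil-KO versus WT beside 0%. DESeq2 called Klf2 and Klf4 in Svil-Mut versus WT beside 1.15% of all genes and in Svil-Mut versus Svil-KO beside 1.41%, and 0 members in Svil-KO versus WT beside 0.0262%.

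Libraries of the groups did not overlap for 4 members in Svil-Mut versus WT (Klf2, Klf4, Klf6 and Klf10), all higher in Svil-Mut, where 7.13% of all genes were higher without overlap. In Svil-Mut versus Svil-KO this held for Klf2, Klf4 and Klf10, where 7.66% of all genes were higher without overlap, and in Svil-KO versus WT for Klf3 alone, which was lower, as were 5.45% of all genes. The median log2 fold change of the members was 0.36 in Svil-Mut versus WT, 0.42 in Svil-Mut versus Svil-KO and -0.01 in Svil-KO versus WT, and the medians of all genes tested lay between -0.0089 and 0.0031. Since the members were chosen from these contrasts, nothing is read from their counts, and the comparisons share libraries with each other.

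**Figure D2:**
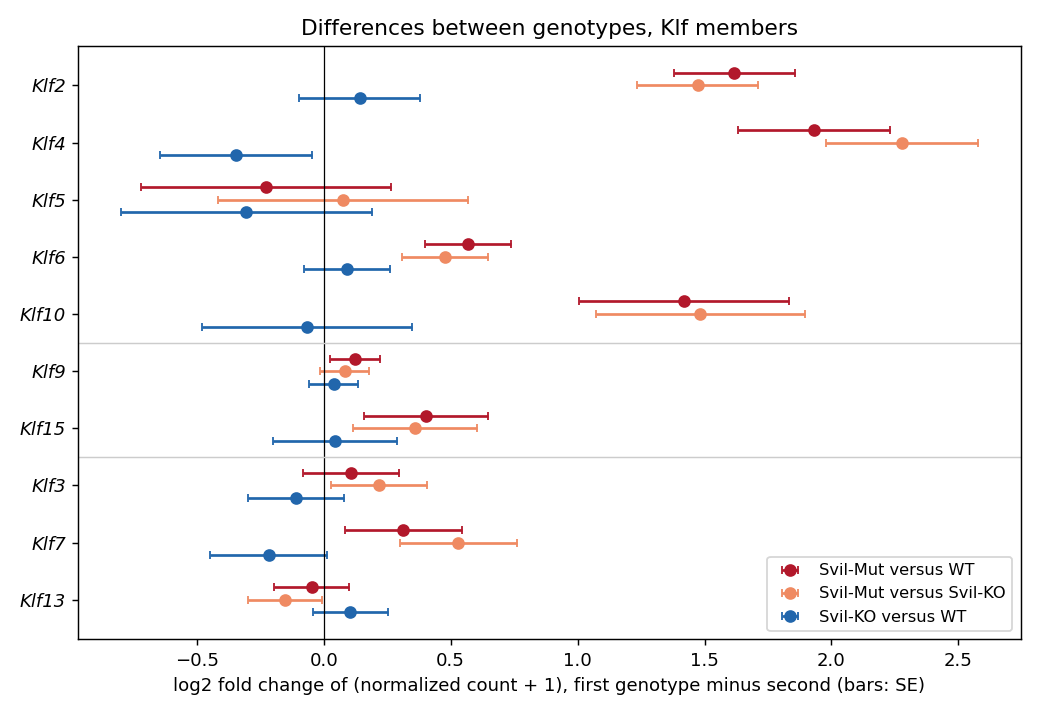
Log2 fold changes of the 10 Klf members (x axis, log2 of normalized count + 1, first genotype minus second) with SE bars from limma. Red points are Svil-Mut versus WT, orange points Svil-Mut versus Svil-KO and blue points Svil-KO versus WT; grey lines divide inducible, metabolic and remaining members, and Klf4, Klf2 and Klf10 lie farthest to the right in the red and orange comparisons.

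Dividing each normalized count by the length of the annotated exons of the gene allowed members to be ordered by level. In WT muscle Klf9 led with 1712 ± 73.7 normalized counts per kb (SD, n = 3), followed by Klf15 with 1048 ± 95.8, Klf2 with 595 ± 126, Klf6 with 420 ± 50.2 and Klf10 with 218 ± 57.4. Klf13 had 134 ± 17.2 per kb in WT, Klf4 70.2 ± 10.6, Klf3 53.9 ± 1.36, Klf5 48.2 ± 37.3 and Klf7 45.1 ± 5.38. The order Klf9, Klf15, Klf2 and Klf6 held in all 6 Svil-KO and WT libraries, whereas the places of Klf10 and Klf13, and those of Klf4, Klf3, Klf5 and Klf7, changed between libraries. In Svil-Mut muscle Klf2 reached 1814 ± 281 per kb beside Klf9 at 1874 ± 252 and Klf15 at 1465 ± 639, levels that overlapped among these libraries. Klf2 had rank 1 in Svil-Mut replicates 1 and 2 and rank 3 in replicate 4, in which Klf15 led. The ratio of Klf2 to Klf9 per kb was 0.715 to 1.24 in Svil-Mut, 0.282 to 0.498 in Svil-KO and 0.271 to 0.436 in WT libraries. Klf4 stood at rank 6 in all 3 Svil-Mut libraries, with 274 ± 77.5 per kb, and at rank 7 to 9 in the Svil-KO and WT libraries. The exon lengths join all annotated transcripts of a gene, so a muscle that uses a shorter transcript would have a higher true level.

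**Figure D3:**
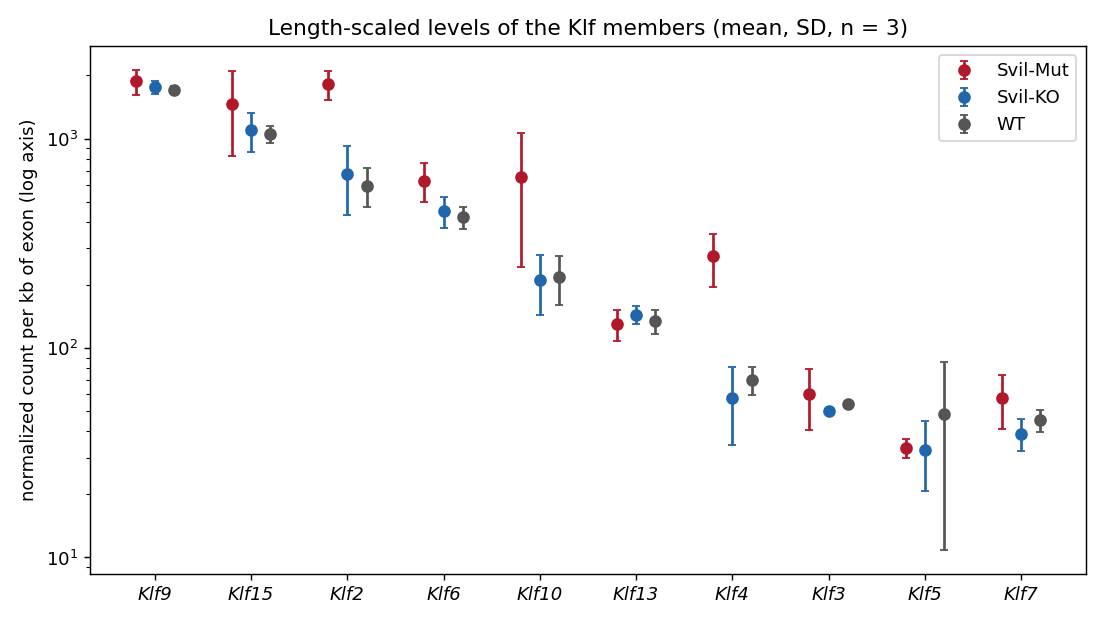
Normalized count per kb of exon (log y axis) of each Klf member, ordered by the WT mean, in Svil-Mut, Svil-KO and WT muscle. Points are means and bars are SD with n = 3; Klf2 of Svil-Mut, at 1814 per kb, reaches the level of Klf9, at 1874 per kb.

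The inducible members were then set against the metabolic ones library by library, as the mean over members of log2(normalized count + 1) less the WT mean. For the 5 inducible members it was 0.97, 1.31 and 0.91 in Svil-Mut, 0.24, -0.36 and -0.17 in Svil-KO, and -0.11, -0.00 and 0.11 in WT libraries. For Klf9 and Klf15 it was 0.06, 0.02 and 0.71 in Svil-Mut, 0.27, -0.08 and -0.06 in Svil-KO, and -0.09, 0.07 and 0.02 in WT libraries. All Svil-Mut libraries were therefore high for the inducible members, but only replicate 4 was also high for the metabolic ones, and Svil-KO replicate 1 was the highest of its group for both.

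Immediate early genes outside the family, which cells switch on within minutes of a stimulus without new protein synthesis, were also high in the Svil-Mut libraries. Their list was drawn up with earlier results of these data known, so it is no independent evidence of a direction. All 22 such genes had a positive log2 fold change in Svil-Mut versus WT, with a median of 2.11 beside -0.0046 for all genes. All 22 were also positive in Svil-Mut versus Svil-KO, with a median of 1.85 beside -0.0089. Limma called 3 higher and none lower in each of these comparisons, beside 0.0393% and 0.0458% of all genes called. Fos, a subunit of the AP-1 factor, had 2740, 2732 and 2418 normalized counts in Svil-Mut, 245, 284 and 185 in Svil-KO, and 287, 214 and 167 in WT. Dusp1, a phosphatase of MAP kinases, averaged 8086 ± 864 (SD over 3 libraries) in Svil-Mut, 4382 ± 202 in Svil-KO and 4297 ± 276 in WT. Atf3, a stress-induced factor, averaged 983 ± 241 in Svil-Mut, 108 ± 31.6 in Svil-KO and 226 ± 35.4 in WT. These were the 3 genes that limma called in both comparisons, also called with edgeR. DESeq2 called 15 of the 22 in each, beside 1.15% of all genes in Svil-Mut versus WT and 1.41% in Svil-Mut versus Svil-KO. Fos was called under every alternative tried, with adjusted p up to 0.0024 in Svil-Mut versus WT. Without the variance trend limma called neither Dusp1 (adjusted p = 0.129) nor Atf3 (0.151) in Svil-Mut versus WT, with the replicate number as a block the adjusted p were 0.0649 for Dusp1 and 0.0781 for Atf3, and the call of Atf3 there was also lost without Svil-Mut replicate 2 (0.0738), WT replicate 3 (0.127) or WT replicate 4 (0.157). In Svil-Mut versus Svil-KO the call of Dusp1 was lost without the trend (0.161), with the block (0.0695) and without Svil-KO replicate 4 (0.0511). Leaving out Svil-KO replicate 1 gave 7 called genes of the list in Svil-Mut versus WT and 6 in Svil-Mut versus Svil-KO, and leaving out Svil-KO replicate 3 gave 5 in Svil-Mut versus WT. Csrnp1, a nuclear protein of the same list, averaged 619 ± 166 in Svil-Mut, 161 ± 95.9 in Svil-KO and 96.1 ± 30.6 in WT and missed the threshold in Svil-Mut versus WT (adjusted p = 0.0525, limma). In Svil-KO versus WT limma, edgeR and DESeq2 called none of the 22, beside 0%, 0% and 0.0262% of all genes. At an unadjusted p under 0.05 with limma there was 1, beside 4.11% of all genes. That was Atf3, which was lower in Svil-KO, with a log2 fold change of -1.09. The median of the 22 was 0.20 beside 0.0031 for all genes, with 16 positive and 6 negative. Svil-KO replicate 1 was again the highest of its group, at 0.93 above the WT mean on the log2 scale.

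**Figure D4:**
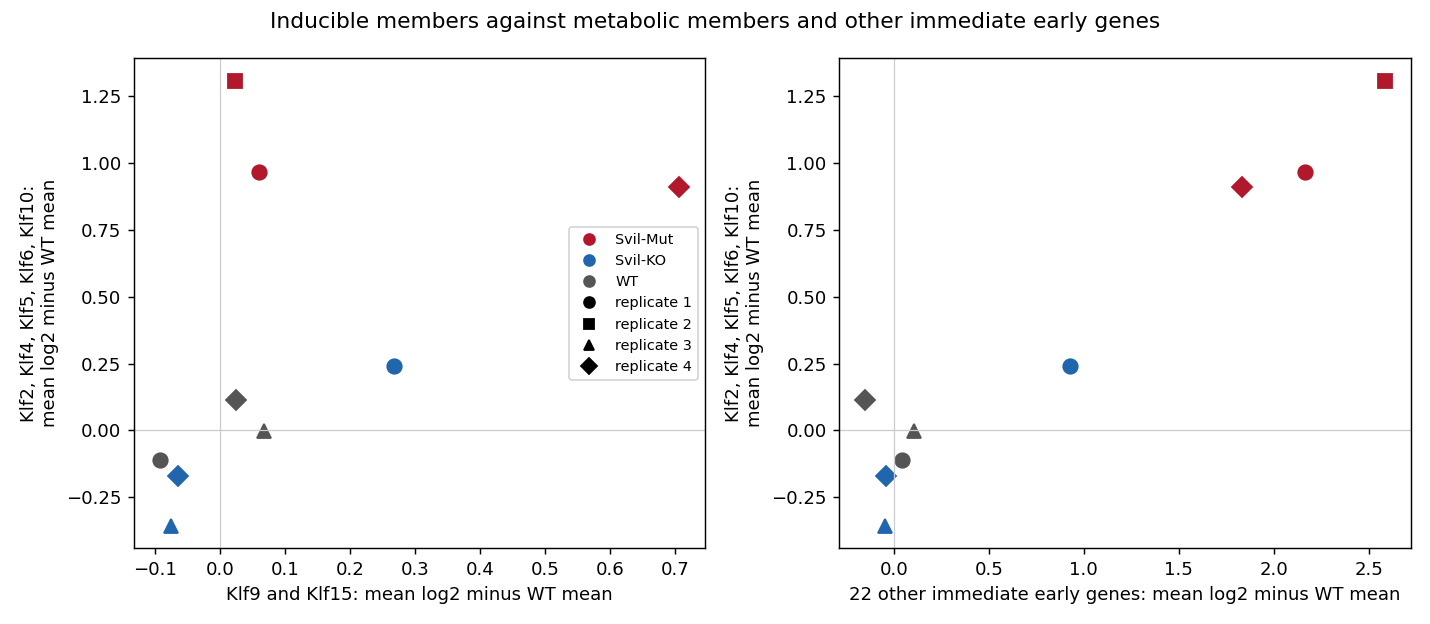
Mean log2(normalized count + 1) of the 5 inducible Klf members less the WT mean (y axes) against the same measure for Klf9 and Klf15 (left x axis) and for 22 other immediate early genes (right x axis). Each point is a library, coloured by genotype and shaped by replicate number; the 3 Svil-Mut libraries lie at 0.91 to 1.31 on the y axes, and only replicate 4 of them lies far to the right in the left panel, at 0.71.

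The 7 Klf genes outside the members included 4 that passed the filter on low counts, Klf1, Klf11, Klf12 and Klf16. None of them was called by limma, edgeR or DESeq2 in any comparison. In Svil-Mut versus WT 1 had an unadjusted p under 0.05 with limma, beside 10% of all genes tested. That was Klf16, a repressor that binds GC boxes, with 67.2, 46.8 and 74.7 normalized counts in Svil-Mut, 23.1, 24.5 and 47.0 in Svil-KO, and 40.5, 32.4 and 6.1 in WT. All Svil-Mut libraries lay above the WT libraries, with a log2 fold change of 1.55 ± 0.64, and 1 Svil-KO library lay among those of Svil-Mut. Klf11, the closest relative of Klf10, had 281, 558 and 195 normalized counts in Svil-Mut, 437, 254 and 195 in Svil-KO, and 220, 122 and 253 in WT, and the 3 groups overlapped. Like Klf10, it was highest in Svil-Mut replicate 2. Klf12, a repressor, averaged 542 ± 82.8 in Svil-Mut, 405 ± 98.8 in Svil-KO and 529 ± 73.4 in WT. Klf1, the factor of red cell precursors, had at most 41.6 normalized counts in any library, Klf8 and Klf14 had at most 12.2, and Klf17 was listed at 0 in all 9 libraries.

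Lists of genes around the family were read for calls in the same fits. Limma, edgeR and DESeq2 called none of the 4 tested Sp family genes, which bind similar GC-rich elements, none of 14 cofactors and ubiquitin ligases of Klf proteins and none of 17 genes known to act upstream of Klf genes, in any of the 3 comparisons. At an unadjusted p under 0.05 with limma in Svil-Mut versus WT there were 0 Sp genes, 1 cofactor and 6 upstream genes. The share of all genes tested was 10%. Mef2c, which encodes a MEF2 factor, averaged 24691 ± 708 normalized counts in Svil-Mut, 27625 ± 1709 in Svil-KO and 28758 ± 399 in WT. Map3k3, a kinase at the head of the ERK5 route, averaged 1734 ± 282 in Svil-Mut, 1621 ± 76.2 in Svil-KO and 1372 ± 13.7 in WT. Smad3 averaged 4504 ± 1295 in Svil-Mut, 4057 ± 373 in Svil-KO and 3099 ± 48.3 in WT. Creb1 averaged 638 ± 122 in Svil-Mut, 765 ± 101 in Svil-KO and 841 ± 68.5 in WT. None of these genes passed the threshold in Svil-Mut versus WT (adjusted p = 0.326 for Mef2c, 0.384 for Smad3, 0.408 for Map3k3 and 0.432 for Creb1, limma).

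Genes on which Klf2 and Klf4 are known to act in endothelium included none that was called, by any of the 3 tools and in any comparison. The median log2 fold change of 6 genes induced by them was 0.02 in Svil-Mut versus WT. Of the 6, 1 had an unadjusted p under 0.05 with limma there, beside 10% of all genes tested. This was S1pr1, a receptor for sphingosine-1-phosphate, which averaged 2545 ± 231 normalized counts in Svil-Mut, 2288 ± 343 in Svil-KO and 1990 ± 264 in WT. Nos3, the endothelial nitric oxide synthase, averaged 205 ± 105 in Svil-Mut, 268 ± 36.6 in Svil-KO and 287 ± 88.3 in WT. Thbd, the anticoagulant thrombomodulin, averaged 678 ± 87.0 in Svil-Mut, 579 ± 35.3 in Svil-KO and 589 ± 70.9 in WT. Cyp1b1, of the same list, averaged 23.2 ± 19.3 in Svil-Mut, 38.1 ± 45.8 in Svil-KO and 49.6 ± 14.1 in WT. The named genes thus did not share a direction, with the highest mean in Svil-Mut for S1pr1 and Thbd and in WT for Nos3 and Cyp1b1. Of all 6 genes, 3 had a positive and 3 a negative log2 fold change in Svil-Mut versus WT. Of 5 tested genes that Klf2 represses, 0 had an unadjusted p under 0.05 and the median was -0.12 in Svil-Mut versus WT. Of these 5, 2 had a positive and 3 a negative log2 fold change there. The chemokine gene Ccl2, among them, averaged 28.8 ± 10.4 in Svil-Mut, 6.56 ± 6.06 in Svil-KO and 6.29 ± 5.49 in WT. Vcam1 averaged 168 ± 39.0 in Svil-Mut, 221 ± 23.2 in Svil-KO and 221 ± 6.70 in WT. F3 averaged 177 ± 99.0 in Svil-Mut, 185 ± 68.8 in Svil-KO and 245 ± 63.7 in WT.

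For the metabolic side of the family, 25 genes linked to Klf15 were read. Most encode enzymes of branched-chain amino acid breakdown, a pathway that Klf15 is known to promote in muscle. The list also held Bckdk, a kinase that inhibits this pathway, and Prodh and Gpt2, which act on other amino acids. Limma, edgeR and DESeq2 called none of the 25 in any comparison. In Svil-Mut versus WT 0 had an unadjusted p under 0.05 with limma, beside 10% of all genes tested, and their median log2 fold change was 0.03. Their summed level was 133059 to 139775 normalized counts in Svil-Mut, 128285 to 142519 in Svil-KO and 133632 to 140193 in WT. Svil-Mut replicate 4, the library with high Klf15, had the lowest sum of its group, below all WT libraries and above 1 of the Svil-KO libraries. A sum is weighted to abundant genes. By the mean over genes of log2(normalized count + 1) less the WT mean, replicate 4 stood at 0.006. That lay inside the ranges of Svil-Mut (-0.032 to 0.035) and WT (-0.050 to 0.026), so its low place depended on the measure.

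Of 14 glucocorticoid-responsive genes, the response to which Klf9 and Klf15 belong, limma and edgeR called none in Svil-Mut versus WT. DESeq2 called 2 there, beside 1.15% of all genes tested, and 6 had an unadjusted p under 0.05 in limma, beside 10%. There, 9 had a positive and 5 a negative log2 fold change. Cdkn1a averaged 950 ± 379 normalized counts in Svil-Mut, 514 ± 17.6 in Svil-KO and 433 ± 72.8 in WT. Sgk1 averaged 22129 ± 2804 in Svil-Mut, 17929 ± 1100 in Svil-KO and 16896 ± 1088 in WT. Pdk4, an inhibitor of pyruvate dehydrogenase, had 5976, 9859 and 11614 normalized counts in Svil-Mut, 17239, 19050 and 52098 in Svil-KO, and 39432, 17331 and 52686 in WT. All Svil-Mut libraries lay below all others for Pdk4. Mt1, a metallothionein, had 1767, 13303 and 2707 in Svil-Mut, 1330, 899 and 1183 in Svil-KO, and 955, 806 and 1322 in WT, with a peak in Svil-Mut replicate 2. Of 18 tested core clock genes limma and edgeR called none in Svil-Mut versus WT, and their median log2 fold change was 0.17. DESeq2 called 3 there, beside 1.15% of all genes tested, and 6 had an unadjusted p under 0.05 in limma, beside 10%. Bhlhe40, a clock repressor, averaged 8587 ± 971 in Svil-Mut, 4533 ± 1227 in Svil-KO and 4815 ± 855 in WT. Arntl, an activator of the clock, averaged 886 ± 181 in Svil-Mut, 467 ± 62.0 in Svil-KO and 493 ± 108 in WT. The labels give no time of day of collection, and its part in these values was not tested.

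Genes whose log2 levels followed 3 members most closely over the 9 libraries were sought among 10928 tested genes with a mean of at least 50 normalized counts. Genes with symbols made of Gm and a number, or ending in Rik, were left out of this search. For Klf2 the closest were Csrnp1 (Pearson r = 0.97), Nedd9 (0.96), Ier2 (0.94), Apold1 (0.94) and Plk3 (0.94). Because Svil-Mut libraries form a cluster of their own for Klf2, r was also taken over the 6 Svil-KO and WT libraries. There it was 0.92 for Csrnp1, 0.85 for Nedd9, 0.82 for Ier2, 0.60 for Apold1 and 0.84 for Plk3. The genes were picked by r over all 9 libraries, which include these 6, so r over the 6 is no independent check. Apold1, an early gene of endothelial cells, had 1609, 1861 and 778 normalized counts in Svil-Mut, 298, 90.7 and 50.2 in Svil-KO, and 117, 101 and 47.9 in WT. For Klf4 the closest were Lrrc32 (0.98), Spty2d1 (0.96), Lrrc59 (0.95), Atf3 (0.95) and Jund (0.95), and over the same 6 libraries r was 0.67 for Atf3 and 0.81 to 0.96 for the others. Lrrc32, a docking protein for latent TGF-beta, had 635, 1275 and 694 in Svil-Mut, 291, 189 and 243 in Svil-KO, and 236, 266 and 364 in WT, a pattern with its peak in Svil-Mut replicate 2, as for Klf4.

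Klf15 had other neighbours, Ctsl (r = 0.996), Plet1os (0.96), Klf9 (0.95), Scx (0.95) and Ino80 (0.94). Without the 2 libraries farthest from the median of Klf15, Svil-Mut replicate 4 and Svil-KO replicate 1, r stayed at 0.98 for Ctsl while it was 0.77 for Scx, 0.42 for Plet1os, 0.38 for Klf9 and 0.21 for Ino80, so the likeness of the last 3 rests on those libraries. Ctsl, the lysosomal protease cathepsin L, had 5206, 4873 and 8028 normalized counts in Svil-Mut, 5721, 4613 and 4522 in Svil-KO, and 4608, 5373 and 4792 in WT, in the same order of libraries as Klf15 in Svil-Mut. These correlations describe libraries that share a genotype and a scaling, and carry no test. Since the genes were picked over all libraries, r over part of them is no independent check.

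Markers of the cell types that could carry Klf transcripts were read beside the members. Of 10 endothelial markers, none was called in any comparison by limma, edgeR or DESeq2, 1 had an unadjusted p under 0.05 with limma in Svil-Mut versus WT, the median log2 fold change was -0.01 in Svil-Mut versus WT, and the markers summed to 11385 to 15046 normalized counts in Svil-Mut, 11075 to 13611 in Svil-KO and 11438 to 13754 in WT. These sums overlapped between the 3 genotypes. Red blood cell genes summed to 6545, 14264 and 49200 normalized counts in Svil-Mut, 6208, 2627 and 5237 in Svil-KO, and 8134, 4413 and 4503 in WT, and none of the 5 was called, though all 5 had an unadjusted p under 0.05 with limma in Svil-Mut versus WT. Svil-Mut replicate 4, with the highest red cell sum, had the lowest Klf2 and Klf10 of the Svil-Mut libraries. It had the highest Klf15, Klf9, Klf3, Klf6 and Klf13, while its Klf4, Klf5 and Klf7 lay between the others. The other groups did not repeat this. WT replicate 1, with the highest red cell sum in WT, had the highest Klf2 (1320) and the lowest Klf9 (7895) and Klf15 (2678) there. Svil-KO replicate 1, with the highest sum in Svil-KO, had the highest Klf2 (1749), Klf10 (1111) and Klf15 (3808) there. Adipocyte markers summed to 246, 131 and 1668 normalized counts in Svil-Mut, 399, 330 and 233 in Svil-KO, and 314, 1357 and 447 in WT, and none of the 6 was called by the 3 tools, with 3 at an unadjusted p under 0.05 by limma in Svil-Mut versus WT. Of these markers 2 were at 0 in Svil-Mut replicate 1 and 3 in replicate 2. WT replicate 3, high for them, was also the highest library for Klf5. But Svil-Mut replicate 4, with the highest adipocyte sum, had 182 normalized counts of Klf5, beside 184 in Svil-Mut replicate 1. Macrophage and leukocyte markers summed to 1828 to 4896 in Svil-Mut, 1746 to 4082 in Svil-KO and 1584 to 2619 in WT, with none of 8 called by the 3 tools and 0 at an unadjusted p under 0.05 by limma in Svil-Mut versus WT. Beside these counts of markers, 10% of all genes tested had an unadjusted p under 0.05 by limma in Svil-Mut versus WT. The part of endothelium, red cells, fat and leukocytes in the Klf values was not tested.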

How the data were processed

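Per the labels' protocols, cDNA of left tibialis anterior RNA was primed with oligo(dT), amplified and tagmented. The kits named there do not mark strand. The submitters' processing notes name HISAT2 (an aligner), featureCounts (a read counter), DESeq2 and the build mm10, without their versions or settings. The deposited signal is a normalized count, deposited by the authors for 9 libraries, whose values are read counts per gene divided by 1 factor per library. All nonzero values (100%) came out as whole reads after dividing by the step of the library, which gave 36234428 to 48762188 reads per library. The tolerance was 0.001 of a read, or for large counts a fixed small share of the count.

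Genotypes came from the labels and replicate numbers from the titles. Genes with at least 10 normalized counts in at least 3 libraries (15279 of 56805, all 10 members among them) were fitted with limma 3.58.1 (R 4.3.3) on log2(normalized count + 1), with an intensity trend and genotype as the only term, and p-values were adjusted over all of them by the Benjamini-Hochberg method at 0.05. This scale understates changes of low genes. Alternatives were edgeR 4.0.16 (6, 0 and 7 genes called in Svil-Mut versus WT, Svil-KO versus WT and Svil-Mut versus Svil-KO) and DESeq2 1.42.0 (176, 4 and 216) on the recovered reads, other pseudocounts, filters and scalings, a replicate block and leaving out each library. Exon lengths and positions are from GENCODE vM21 (GRCm38), which need not be the annotation of the authors. Promoter letters are from RefSeq, GRCm38.p6.

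The members, lists and tests were chosen with earlier results of these data known. Named genes are all Klf genes, Svil, up to 4 genes of each list by smallest unadjusted p in Svil-Mut versus WT, and the 5 genes closest to Klf2, Klf4 and Klf15. Lists for pericytes, fibro-adipogenic, satellite and Schwann cells held no called gene in any comparison with limma, edgeR or DESeq2, and 0 at an unadjusted p under 0.05 by limma in Svil-Mut versus WT. Nothing says that the mice came from separate litters, and litter was not modelled. The limma p-values set a genotype difference against the spread between these mice, pooled over the genotypes and drawn toward that of other genes. Plots were drawn with matplotlib 3.10.9.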

Additional observations from a re-analysis of the deposited data

Results flagged for a closer look

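Between Svil-Mut and Svil-KO, 5 of the genes named above passed the threshold in the direct limma comparison. Klf4 was picked from this contrast, and Fos, Atf3 and Dusp1 belong to a list drawn up with these results known, so their values are a description and support no claim about the genotypes. Klf4 had a log2 difference of 2.28 (adjusted p = 0.0261), higher in 3 of 3 Svil-Mut libraries than in any Svil-KO library. Fos had 3.48 (adjusted p = 4.78e-05), Atf3 3.19 (adjusted p = 0.000628) and Dusp1 0.879 (adjusted p = 0.0047), each by limma and each higher in 3 of 3 Svil-Mut libraries. Svil had -0.665 (adjusted p = 0.0261 by limma), lower in 3 of 3 Svil-Mut libraries than in any library labelled Svil-KO. The call of Svil was lost without the variance trend (adjusted p = 0.321 by limma), with only the 2 genotypes in the fit (0.107), with the replicate block (0.148) and when any of 6 libraries was left out (Svil-Mut replicate 2, Svil-KO replicates 1, 3 and 4, WT replicates 1 and 4), with adjusted p of 0.061 to 0.11.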

How the results depend on the processing

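The number of genes called in Svil-Mut versus WT, 6 in the reported fit, was 19 with a pseudocount of 10, 16 with a mean of at least 50 normalized counts, 14 with only the 2 genotypes compared in the fit and 176 with DESeq2, and the Klf members called, 0 in the reported fit, were 2 under each of these. In Svil-Mut versus Svil-KO, 7 genes and 1 member in the reported fit, DESeq2 called 216 genes and 2 members, and no member (0) was called without the variance trend or with only the 2 genotypes compared. In Svil-KO versus WT DESeq2 called 4 genes and no other alternative called any. The cause was not tested. Leaving out 1 library gave 4 to 18 genes and 0 to 2 members in Svil-Mut versus WT, the highest counts when Svil-Mut replicate 1 (18), Svil-KO replicate 1 (17), Svil-Mut replicate 4 (13) or Svil-KO replicate 3 (12) was left out. It gave 4 to 13 genes and 0 to 2 members in Svil-Mut versus Svil-KO, 13 when Svil-KO replicate 1 and 4 when Svil-KO replicate 4 was left out. For the immediate early genes the same alternatives were applied after the data were seen. The 3 called in Svil-Mut versus WT were 7 with a pseudocount of 10, 5 without the filter, 6 with a mean of at least 50, 1 without the variance trend, 7 with only the 2 genotypes, 1 with the replicate block, 15 with DESeq2 and 2 to 7 with 1 library left out. The 3 in Svil-Mut versus Svil-KO were 15 with DESeq2 and 2 to 6 with 1 library left out. The adjusted p of Klf4 in Svil-Mut versus Svil-KO ran up to 0.235 over the alternatives. Of 600 recomputed member log2 fold changes 19 had the opposite sign, all of members whose reported value was at most 0.30 in size. The medians of the members kept to within the spread between replicates, and scalings moved the median of all genes by less than 0.1. With the replicate number as a block, 7, 0 and 6 genes and 1, 0 and 1 members (Klf2 in each case, adjusted p = 0.0242 and 0.033 by limma) were called in Svil-Mut versus WT, Svil-KO versus WT and Svil-Mut versus Svil-KO, and the log2 fold change of Klf10 was 0.68 in Svil-Mut versus WT and 0.74 in Svil-Mut versus Svil-KO. Numbers do not pair the samples by the labels. After the mean of each genotype was taken off for every gene, same-numbered libraries of Svil-KO and WT correlated at 0.026 to 0.044 over 3 pairs. Among pairs of Svil-KO with WT, all 6 libraries correlated best with their own number. With Svil-Mut included this did not hold, as WT replicate 3 reached 0.061 with Svil-Mut replicate 4. Members with few reads, down to 81 in a library for Klf5, also carry counting error, which was not separated from the spread between mice.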
